A study of Mus musculus with 25 samples.

Results

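Open chromatin was mapped by ATAC-seq, in which a transposase cuts accessible DNA, in 4 sorted populations of mouse skin, and the report describes the sites that epidermal stem cells (EpdSC) shared with wound cells but not with hair follicle stem cells (HFSC). The authors deposited 1 peak list per population, and overlapping peaks of the 4 lists on chromosomes 1 to 19 and X were merged into 98107 union regions. Members are the regions with an EpdSC peak and a wound peak and no HFSC peak. They numbered 3017, or 3.08% of all regions and 11.9% of the 25339 regions with an EpdSC peak. Of these, 1642 also had a tumour peak and 1375 had none. The members were chosen by peak presence in 3 of the lists, so presence and the peaks' own values are given below as a description, without tests.

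The ATAC-seq cells came from female mice of a CD1/B6 mixed background. EpdSC (integrin A6 high, CD34 negative, Sca1 positive) and HFSC (integrin A6 high, CD34 positive, Sca1 negative) were from back skin at postnatal day 50. Wound cells (integrin A6 positive, Sca1 positive) were from full-thickness and partial-thickness wounds and carried no lineage mark, and tumour cells (integrin A6 high and B1 high, GFP positive) were the tumour-initiating stem cells of grafted squamous cell carcinomas induced by oncogenic HRas. Each population was a single list with no replicate. The wound and EpdSC sorts both selected Sca1-positive cells and the HFSC sort removed them, so the Sca1 gate and the pattern that defines the members cannot be told apart.

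EpdSC maintain the epidermis between hair follicles, and HFSC sit in the bulge of the follicle and renew the hair. After injury both can contribute cells to the new epidermis. Peaks away from gene starts often mark enhancers, the elements that bind transcription factors and act on genes at a distance, and AP-1 (dimers of Fos and Jun proteins) is a factor known to bind many enhancers of epidermal cells under stress or growth stimulation.

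The promoters of 5 genes that lay in or across a member are printed first because each holds the AP-1 letters. Promoters overlapped by members carried these letters more often than promoters at large. Only promoters were searched, and 3.94% of the members lay within 1 kb of a gene start. Each printed promoter runs 250 bases before to 50 after the gene start in the RefSeq promoter table (build GRCm38.p6, the assembly of mm10). It is given 5′ to 3′ on the gene's strand, with TGANTCA in capitals. Mmp3 lies at chr9:7445572-7445871 on the plus strand, Cyp3a13 at chr5:137921570-137921869 on the minus strand, Skint11 at chr4:114163134-114163433 on the plus strand, Il1a at chr2:129309923-129310222 on the minus strand and Mmp10 at chr9:7502092-7502391 on the plus strand. The members at Mmp3, Cyp3a13 and Skint11 had no tumour peak, and those at Il1a and Mmp10 had a tumour peak. Mmp3, Skint11 and Mmp10 were chosen for printing after their values were seen.
Mmp3 promoter: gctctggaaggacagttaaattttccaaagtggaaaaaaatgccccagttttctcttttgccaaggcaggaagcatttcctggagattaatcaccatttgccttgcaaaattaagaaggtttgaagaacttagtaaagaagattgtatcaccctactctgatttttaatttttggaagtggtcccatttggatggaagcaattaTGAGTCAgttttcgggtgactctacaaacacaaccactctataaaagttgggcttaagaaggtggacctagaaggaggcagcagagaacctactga
Cyp3a13 promoter: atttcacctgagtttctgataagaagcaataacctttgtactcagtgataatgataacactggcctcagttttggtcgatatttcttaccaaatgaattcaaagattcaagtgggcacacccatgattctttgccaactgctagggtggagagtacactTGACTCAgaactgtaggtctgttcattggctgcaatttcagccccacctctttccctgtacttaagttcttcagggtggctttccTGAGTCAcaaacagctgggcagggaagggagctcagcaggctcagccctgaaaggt
Skint11 promoter: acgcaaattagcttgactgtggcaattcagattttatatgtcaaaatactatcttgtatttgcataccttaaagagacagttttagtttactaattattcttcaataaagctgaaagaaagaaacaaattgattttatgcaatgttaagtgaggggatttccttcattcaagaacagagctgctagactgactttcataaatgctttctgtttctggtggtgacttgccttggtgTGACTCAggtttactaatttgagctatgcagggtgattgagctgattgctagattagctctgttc
Il1a promoter: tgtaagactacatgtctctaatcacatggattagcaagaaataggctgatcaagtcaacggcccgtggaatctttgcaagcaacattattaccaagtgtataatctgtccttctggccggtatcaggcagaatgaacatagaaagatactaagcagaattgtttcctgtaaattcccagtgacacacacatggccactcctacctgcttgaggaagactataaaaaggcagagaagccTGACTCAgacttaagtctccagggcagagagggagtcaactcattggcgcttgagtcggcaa
Mmp10 promoter: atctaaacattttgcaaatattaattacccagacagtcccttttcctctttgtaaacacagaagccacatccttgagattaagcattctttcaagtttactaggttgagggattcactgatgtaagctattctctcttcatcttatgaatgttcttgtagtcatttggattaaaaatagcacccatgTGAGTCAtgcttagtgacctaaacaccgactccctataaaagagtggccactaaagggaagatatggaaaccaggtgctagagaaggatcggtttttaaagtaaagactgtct

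The first AP-1 base lay 46 bases before the start of Mmp3, which encodes the matrix metalloproteinase stromelysin-1, and 63 bases before that of Mmp10, which encodes stromelysin-2. It lay 12 bases before the start of Il1a, the alarm cytokine interleukin 1 alpha, and 15 bases before that of Skint11, a member of an immunoglobulin-like family expressed in epidermis and thymus. Cyp3a13, a cytochrome P450, held 2 copies, 91 and 6 bases before its start. Members overlapped 122 RefSeq promoter windows in all, 70 with and 52 without a tumour peak. TGANTCA, searched on both strands, was in 23 of them, or 18.9% (Wilson 95% interval 12.9 to 26.7), against 4.63% of the 9269 windows in regions with a peak in all 4 lists and 7.85% of all 32585 windows. The share was 20% in windows of members with a tumour peak and 17.3% in those without, with intervals of 12.3 to 30.8 and 9.38 to 29.7 that overlapped. In the 23 windows the letters occurred 26 times, 23 of them before the start and 13 of these within 100 bases of it.

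Other short motifs divided the same windows differently. The letters GGGGCGGGG, bound by SP factors, were in 4.10% of the members' windows against 22.7% of windows in regions with all 4 peaks and 11.5% of all windows. GCCNNNGGC, the TFAP2 motif, was in 9.02% against 26.2% and 16.7%. TGTTTAC, the FOX motif, was in 8.20% against 2.48% and 3.67%, and TAATTA, a homeobox motif, in 8.20% against 2.07% and 5.26%. The KLF letters CCACACCC or CCCCACCC were in 19.7%, against 14.1% and 13.1%, and AGATAA, the GATA motif, in 12.3%, against 5.20% and 11.2%. A window can count under several motifs. The windows also differed in base composition: the median GC content was 49.7% at members, 62.3% in regions with all 4 peaks and 53% over all windows, and its part in the motif shares was not tested.

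As peaks, the members were of middle size and strength in these lists. Median length was 664 bases, 716 with a tumour peak and 590 without, against 380 bases for regions with an EpdSC peak alone and 1097 for regions with EpdSC, wound and HFSC peaks. The authors' fold enrichment, the pileup of fragments over the local background of the same library, had a median of 5.72 in EpdSC over the members (5.87 with and 5.54 without a tumour peak), against 4.85 where EpdSC had the sole peak and 6.76 where HFSC shared it. In the wound list the members' median fold was 7.97 with a tumour peak and 6.28 without. The summits of the EpdSC and wound peaks lay a median of 53 bases apart, and 87.1% were within 250 bases. The plot of regions by peak list shows where the members stand among the 15 combinations seen.

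**Figure D1:**
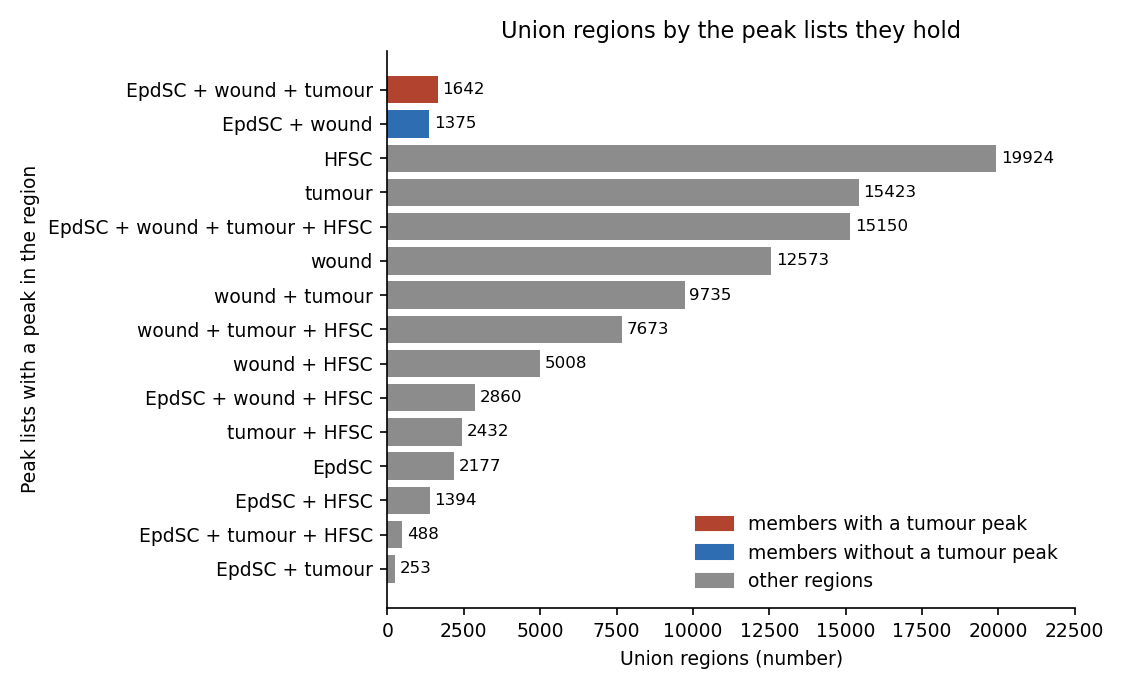
Number of union regions (x axis) for each combination of the 4 peak lists (y axis), with the members in red (1642 with a tumour peak) and blue (1375 without) and other regions in grey. The members are small classes beside the 19924 regions with an HFSC peak alone and the 15150 with a peak in all 4 lists.

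The rule has sharp edges. The nearest HFSC peak lay 11 bases from a member at the closest, 67 members had an HFSC peak within 500 bases, and the median distance was 10.8 kb. Among members, 28 had a -log10 q under 2 in EpdSC and 19 in wound, while 914 regions were left out for an HFSC peak whose -log10 q was under 5. The EpdSC and wound libraries had 14.0 M and 11.1 M fragments, against 26.8 M in the HFSC library. A missing HFSC peak therefore came from a deeper library than the peaks that were present.

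Sites that EpdSC did not share with HFSC had a wound peak less often than shared sites. Of the 5447 regions with an EpdSC and no HFSC peak, 55.4% had a wound peak (interval 54.1 to 56.7), against 90.5% of the 19892 regions with both (90.1 to 90.9). Tumour peaks were present in 54.4% of the members (52.6 to 56.2). The share was 84.1% where HFSC also had a peak and 10.4% in the 2430 regions with an EpdSC peak and neither an HFSC nor a wound peak. All these intervals cover counting error only, since there is 1 list per population.

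Members with stronger wound peaks had a tumour peak more often. The share was 29.0% of the 207 members with a wound fold under 4, 41.9% from 4 to 6, 52.8% from 6 to 8, 63% from 8 to 10 and 74.8% of the 555 with a fold of 10 or more. Across EpdSC fold the same shares ran from 50.9% to 61.7%. Over the members with a tumour peak, the rank correlation of wound and tumour fold was 0.53 and that of EpdSC and tumour fold 0.29, a description over regions that come from the same 3 libraries. The wound fold exceeded the EpdSC fold in 78.6% of members with a tumour peak and in 59.3% of those without.

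**Figure D2:**
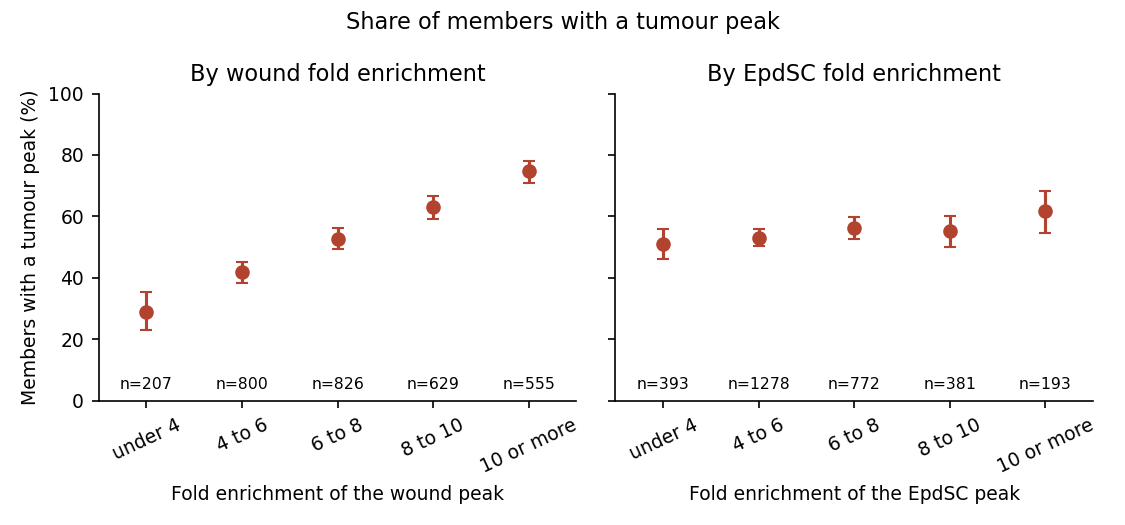
Percent of members with a tumour peak (y axis) in bins of the wound peak's fold enrichment (left) and the EpdSC peak's (right), with Wilson 95% intervals and the number of members in each bin. The share runs from 29.0% to 74.8% across wound fold and stays between 50.9% and 61.7% across EpdSC fold.

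Members lay mostly away from gene starts. Only 119, or 3.94% (3.31 to 4.70), had their EpdSC summit within 1 kb of the start of a protein-coding gene, 4.26% of those with a tumour peak and 3.56% of those without. The share was 3.08% for regions with an EpdSC peak alone, 20.5% for regions with HFSC and wound peaks but none in EpdSC, 44.1% for regions with EpdSC, wound and HFSC peaks and 13.6% over all regions. The median distance to the nearest start was 35.0 kb for members and 4.37 kb for regions with EpdSC, wound and HFSC peaks. Within annotated genes lay 46.7% of the members, against 51.2% of all regions. For genes without a listed start the nearer gene end was used.

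**Figure D3:**
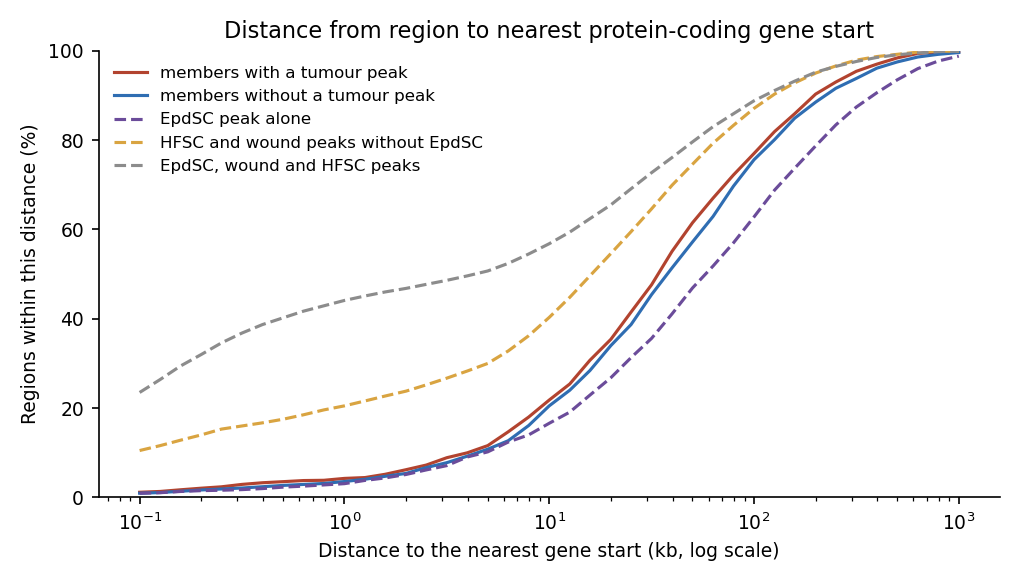
Cumulative percent of regions (y axis) within a given distance of the nearest protein-coding gene start (x axis, kb on a log scale) for members with and without a tumour peak and 3 other classes of regions. The curves of the members lie close together and reach 4.26% and 3.56% at 1 kb, where regions with EpdSC, wound and HFSC peaks reach 44.1%.

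The members were spread over the genome, making up 2.47% of the union regions of chromosome 11 at the least and 4.18% of chromosome 18 at the most. Another member lay within 50 kb of 30.4% of them. They were nearest to 2203 genes, 1643 of which had 1 member and 23 of which had 5 or more. Il15, a cytokine that sustains T cells and natural killer cells, was nearest to 9 members at 18.6 to 470 kb, 2 of them with a tumour peak. Myc, the growth-promoting transcription factor, was nearest to 8 members at 73.2 to 495 kb, 5 with a tumour peak. Jag1, a Notch ligand, was nearest to 7 members at 8.43 to 544 kb, 3 with a tumour peak, and Zfp608, a zinc finger gene, to 6, all with a tumour peak. Xylt1 and Flrt3 had 7 each, Acvr2a and Tent5a 6 each, and Ppp3ca and Plk2 5 each.

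The strongest members by mean rank of EpdSC and wound fold were single sites of 332 to 1552 bases. With a tumour peak, the first was chr3:159660749-159661378, with folds of 14.5 in EpdSC, 17.2 in wound and 19.3 in tumour, outside any gene and 61.7 kb from Rpe65. The site at chr8:44924822-44925485, 25.1 kb before the start of Fat1, an atypical cadherin, had 13.5, 13.8 and 17.0. The site at chr10:17034841-17035417 had 11.2, 16.2 and 17.3 and lay 688 kb from its nearest gene, the transcriptional coregulator Cited2. These 3 sites had their highest fold in the tumour list. Without a tumour peak, the first was chr1:169980569-169981125, within an annotated gene and 11.6 kb before the start of Hsd17b7, with 13.0 in EpdSC and 14.7 in wound. The site of the same class at Cyp3a13, chr5:137921458-137921990, had 11.5 and 12.3 and covered the promoter printed above. Folds of different lists are not on a shared scale, as each is relative to its own library's background.

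RNA-seq of 21 libraries from female B6 mice, at postnatal day 60 for the skin libraries and with no age given for the tumours, gave 14.2 to 36.4 M counts per library. Set CL held 2 libraries each of wounded EpdSC (YFP negative), EpdSC, wounded HFSC lineage (YFP positive) and HFSC, the wounded ones lineage-negative, integrin A6 high cells of Sox9CreER;R26-YFP mice, in which Cre marks descendants of Sox9-expressing cells; YFP-negative cells can include unmarked follicle cells. Set BK held 1 wounded EpdSC, 2 EpdSC and 2 HFSC libraries, and its treatment label names a wound biopsy for all 5. Set DS held integrin A6 high and low GFP-positive cells of grafted HRas, HRas TbrKO and TbrKO tumours, and Tbr EpdSC and Tbr HFSC, 1 library each. The labels do not say whether paired libraries are from different mice, and the p-values therefore reflect only variation among the libraries at hand, which may be technical. The markers CD34 and Sca1 were visible in the RNA of CL EpdSC and HFSC. Cd34 had 4.34 and 8.75 CPM (read counts scaled to a common library total) in CL EpdSC against 660 and 419 in CL HFSC. Ly6a, which encodes Sca1, had 197 and 219 against 36.2 and 59.4. Itga6, which encodes integrin A6, had 1118 and 1128 CPM in CL EpdSC and 445 and 514 in CL HFSC. It had 493 and 804 in wounded HFSC lineage but 167 and 520 in wounded EpdSC, below EpdSC and uneven between the libraries.

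A gene was called near a member when its start was the nearest to the member's EpdSC summit and within 50 kb, which held for 1796 members (59.5%) and 1489 genes of the count table. Fits ran over all genes with edgeR's quasi-likelihood test, and a gene was called at an adjusted p (Benjamini-Hochberg over all genes tested) under 0.05. These calls are set beside the percent called over all genes, since no test of the list as a whole was made. The comparisons share libraries, CL EpdSC and CL HFSC each standing in 2 of the 5, so the values are given side by side.

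Genes near members were more often higher in EpdSC than genes at large. In CL, 144 of 1260 tested were higher in EpdSC than in HFSC, or 11.4% against 3.63% of all 14831 genes, and 109 were lower, or 8.65% against 7.19%. In BK, 186 of 1258 were higher, 14.8% against 6.47%, and 69 were lower, 5.48% against 7.91%. The median log2 fold change, EpdSC over HFSC, was 0.19 near members and 0.02 over all genes in CL, and 0.42 and 0.03 in BK. Genes near members with and without a tumour peak gave 11.1% and 13.0% higher in CL and 15.4% and 15.3% in BK. For genes near regions with an EpdSC peak alone the share was 10.7% in CL, close to the members' share, and 16.4% in BK, above it. The trait was therefore not particular to the members, and the difference was not tested. Genes with a member within 1 kb of their start had 18.5% higher in CL (17 of 92) and 20.2% in BK (17 of 84).

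The counts depended on single libraries, while the order against all genes did not. Without CL EpdSC replicate A, B or CL HFSC replicate A, 54, 62 and 70 genes near members were higher, or 4.14%, 4.75% and 5.39%, against 0.823%, 1.15% and 1.23% of all genes. In BK the shares were 39.1% against 23.1% without EpdSC 1, 27.5% against 16.0% without EpdSC 2 and 6.90% against 3.19% without HFSC 1. In both sets together, 85 of 1223 genes near members were higher in EpdSC (6.95%, against 2.07% of 14134), 50 were lower (4.09%, against 4.6%), and 1 was called in opposite directions. Near regions with an EpdSC peak alone, 7.37% were higher and 5.07% lower in both sets.

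**Figure D4:**
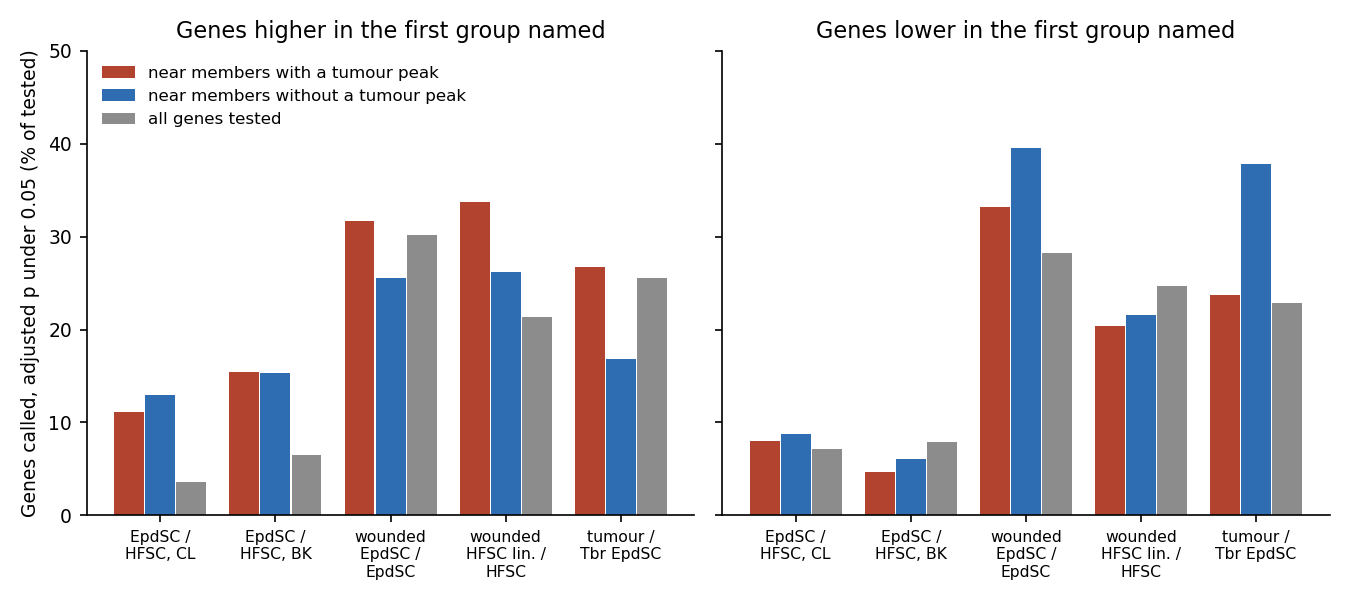
Percent of tested genes called higher (left) and lower (right) in each of 5 comparisons (x axis, first group over second) for genes near members with a tumour peak, near members without, and all genes tested. Higher calls in EpdSC over HFSC reach 11.1% and 13.0% in CL against 3.63% of all genes, and lower calls in tumour over Tbr EpdSC reach 37.8% near members without a tumour peak against 23.7% near those with. Genes near regions with an EpdSC peak alone, which are not drawn, had 38% lower calls in that comparison.

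Among the genes higher in EpdSC in both sets were ligands and receptors. Bmp3, a BMP-family ligand with a member 9.96 kb from its gene (chr5:98844068-98846580, with a tumour peak), had 16.2 and 18.7 CPM in CL EpdSC against 0.311 and 0.751 in HFSC, and 32.0 and 53.4 against 0.774 and 1.15 in BK. Its log2 fold change, EpdSC over HFSC, was 5.06 ± 0.71 (SE, n = 2 each, edgeR adjusted p = 0.00375) in CL and 5.46 ± 0.48 (edgeR adjusted p = 0.00321) in BK. Every EpdSC library stood above every HFSC library of its set, which is largely built in for a gene chosen by its change. Bmpr1b, a BMP type I receptor with 3 members within 50 kb, had 4.71 and 5.88 CPM in CL EpdSC against 0.254 and 0.113 in HFSC (4.76 ± 0.71, edgeR adjusted p = 0.00485). Il20ra, a receptor chain for interleukin 20 family cytokines, had a member 1.33 kb from its start and 137 and 137 CPM in CL EpdSC against 5.20 and 9.81 in HFSC (4.19 ± 0.33, edgeR adjusted p = 0.000386). Both receptors were also called higher in BK, by 4.25 ± 0.69 and 4.84 ± 0.67 on the log2 scale (edgeR adjusted p = 0.0124 and 0.00813).

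Other genes with large changes in both sets encode enzymes, signalling proteins and a transcription factor. Adamts14, a procollagen-processing protease, had 314 and 264 CPM in CL EpdSC against 6.32 and 13.8 in HFSC, and Adam8, a membrane metalloprotease with a member over its start, had 69.4 and 50.6 against 2.40 and 3.79. Gna14, a G protein alpha subunit, had 76.0 and 68.9 against 2.17 and 5.34, and the transcription factor Irf4 had 26.7 and 27.3 against 1.10 and 1.35. The log2 fold changes of these 4 in CL lay between 4.28 and 4.85. They were chosen for large changes in both sets, so groups without overlap are largely built in. Pls1, an actin-bundling protein, and Gsdmc2, a gasdermin, were also among the 10 with the largest changes. Gsdmc2, Skint11, Cyp3a13 and Tmprss11g belong to families of similar genes, among which the authors' counting could split reads.

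Members also lay near genes that were higher in HFSC. Calml3, a calmodulin-like protein of epithelia with a member 14.0 kb away, had 8.56 and 11.9 CPM in CL EpdSC against 606 and 455 in HFSC, and differed by -5.70 ± 0.29 on the log2 scale (edgeR adjusted p = 0.000175). Ctgf, a matricellular protein, had 17.4 and 26.2 against 600 and 862, and Vit, a matrix protein, 0.162 and 0.188 against 14.9 and 13.8. Wif1, a secreted Wnt inhibitor, had 0.0625 CPM or less in CL EpdSC against 22.4 and 33.9 in HFSC, and 0.439 and 0.278 against 110 and 70.8 in BK. All 4 were called lower in EpdSC in both sets. Lef1, the Wnt-responsive transcription factor, was called lower in both but lost the call in CL without EpdSC replicate A (edgeR adjusted p = 0.0559).

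Of the gene lists, cytokines and their receptors had the most genes near members, 9 of 13 with 12 members, 7 with a tumour peak. Of these 9, 4 were higher in EpdSC in CL and 6 in BK, 0 were lower in CL and 1 was lower in BK, and their median log2 fold change was 1.2 and 2.96. The whole list of 13 had the same medians, with 6 higher and 0 lower in CL and 7 higher and 1 lower in BK. The pattern was therefore not particular to the genes near members. Regions with EpdSC and HFSC peaks also lay near 9 of the 13. Il20ra and Il1r2, the decoy receptor for interleukin 1, kept their calls in every alternative run. Il1rn, the interleukin 1 receptor antagonist, and Tslp, an alarm cytokine, were called in both sets but lost the CL call without EpdSC replicate A (edgeR adjusted p = 0.0859 and 0.236). In BK, Il1rn lost it without HFSC 1 (edgeR adjusted p = 0.0531) and Tslp without HFSC 1 or 2 (0.107 and 0.134). Cxcl14, a chemokine, was the gene lower in BK.

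Other lists had fewer genes near members. Of the 19 BMP, TGF-beta and Wnt genes, 6 had a member near, and 3 of the 6 were higher in EpdSC in CL and in BK: Bmp3 and the Wnt ligand Wnt4 in both, Wnt7b in CL and the Wnt target Axin2 in BK. Only Bmp3 among them kept its calls in every leave-one-out fit. Of the 6, 0 were lower in either set. The whole list of 19 went both ways, with 5 higher and 3 lower in CL and 7 higher and 5 lower in BK. Of 18 epidermal differentiation genes, 5 had a member near, 1 with a tumour peak among their 6 members, and 4 of the 5 were lower in EpdSC in CL: Calml3, Ivl, Dsc1 and Cdsn, of which all but Calml3 lost the call without EpdSC replicate A or B. Casp14 was higher in CL, and in BK 1 of the 5 was lower and 0 higher. Over the whole list, 4 were higher and 6 lower in CL and 1 and 1 in BK. Of 18 EpdSC identity genes, Grhl1, Tfap2a and Zfp750 had a member near and 0 of 3 were called, with log2 fold changes of -0.20, -0.07 and 0.24 in CL. Of 18 HFSC identity genes, Nfatc1 and Nfib had a member near, and Nfatc1 was lower in EpdSC in both sets (-2.33 ± 0.22 in CL, edgeR adjusted p = 0.000741). Wound keratins and alarm proteins had members near 2 of 14, basal epithelium near 1 of 13, AP-1 genes near 1 of 10 (Jun) and EGF family genes near 3 of 11. In the same order, 3, 13, 9 and 10 genes were near a region with EpdSC and HFSC peaks. Over all 20384 genes matched to the count table, 1489 had a member near. With so few genes per list, the counts are given as a description only.

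**Figure D5:**
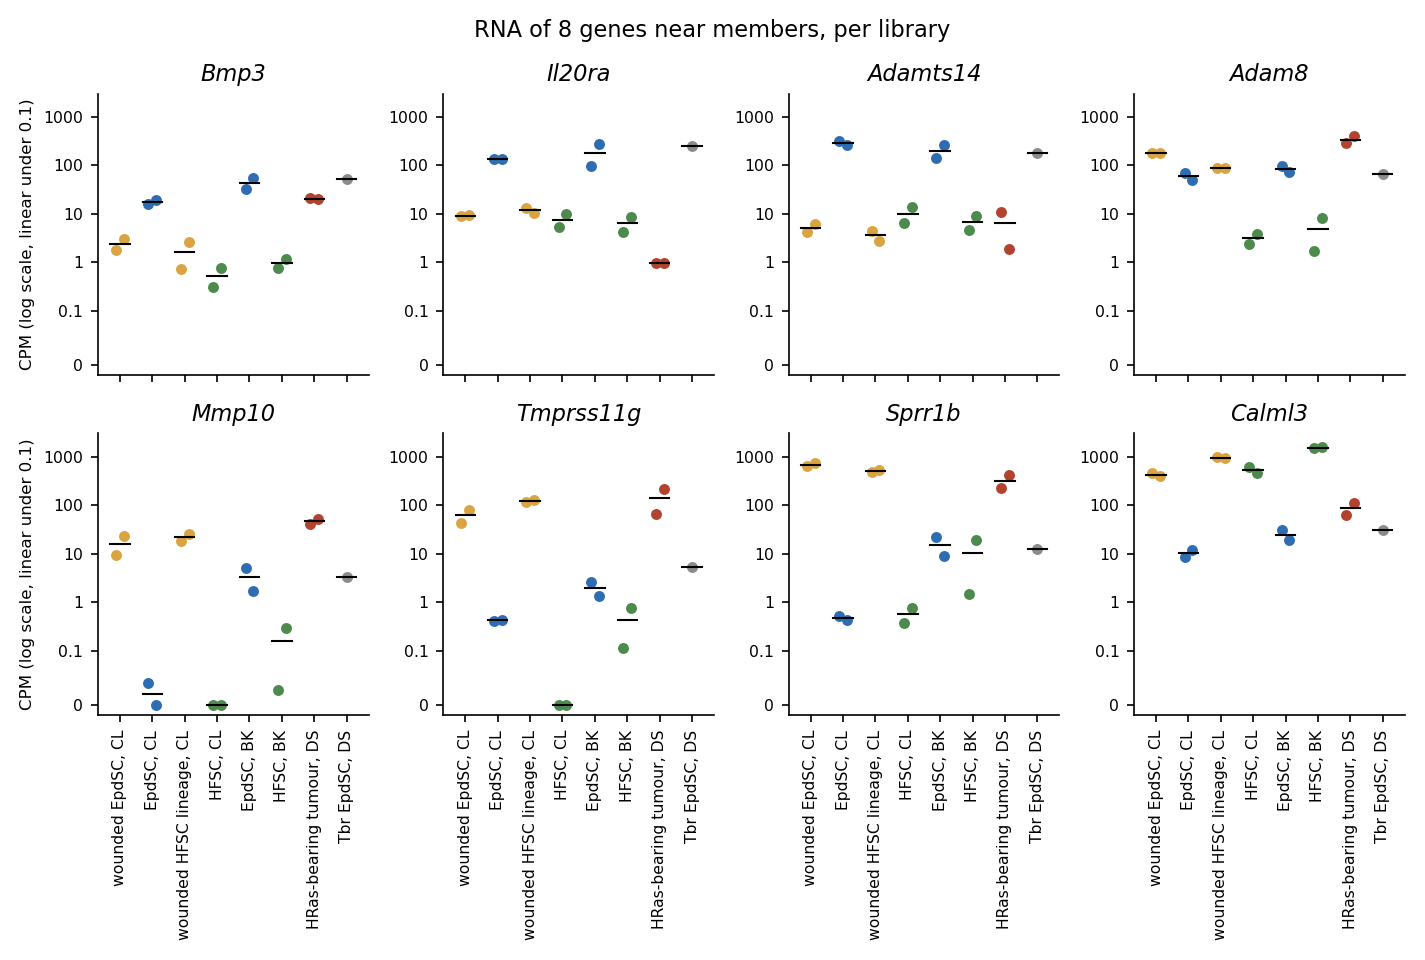
CPM per library (y axis, log scale, linear under 0.1) of 8 genes near members in wounded EpdSC, EpdSC, wounded HFSC lineage and HFSC of set CL, EpdSC and HFSC of set BK, and HRas-bearing tumour cells and Tbr EpdSC of set DS. Points are libraries and bars their means; Bmp3, Il20ra and Adamts14 are high in EpdSC, Sprr1b and Tmprss11g are high in the wounded groups, and Calml3 is higher in HFSC than in EpdSC of both sets.

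After wounding, genes near members had more higher than lower calls in the HFSC lineage and more lower than higher calls in EpdSC. In wounded HFSC lineage over HFSC, 380 of 1260 were higher (30.2%, against 21.4% of all genes) and 262 lower (20.8%, against 24.7%), with a median log2 fold change of 0.18 against -0.10. In wounded EpdSC over EpdSC, 364 were higher (28.9%, against 30.2%) and 452 lower (35.9%, against 28.2%), with a median of -0.24 against -0.04; in either direction 58.4% of all genes were called. The test of the difference, wounded EpdSC response minus wounded HFSC lineage response, called 108 genes near members positive (8.57%, against 10.5% of all) and 174 negative (13.8%, against 5.31%). In the same unwounded CL libraries, genes near members were already more often higher in EpdSC than in HFSC (11.4%, against 3.63% of all). The difference subtracts that starting gap, so a surplus of negative calls is partly built in. The surplus of negative calls depended on single libraries: without EpdSC replicate A, 45 were positive and 45 negative, and without wounded EpdSC replicate B, 141 and 520. The counts were 62 and 64 without EpdSC replicate B, 75 and 77 without HFSC replicate A, and 63 and 99 without HFSC replicate B. They were 57 and 87 without wounded HFSC lineage replicate A and 65 and 72 without replicate B. In each of these fits the negative share near members was above that of all genes, at the lowest 3.45% against 0.74%. Without wounded HFSC lineage replicate A, 273 were higher and 153 lower in the HFSC lineage, 20.9% and 11.7% against 12.6% and 13.1% of all genes.

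The shares varied with the class of the region nearby. Higher calls in the wounded HFSC lineage were 33.7% near members with a tumour peak, 26.2% near those without and 19.4% near regions with an EpdSC peak alone. Lower calls in wounded EpdSC were 33.2%, 39.5% and 45.1% in the same order. Another set held genes near members that were not the nearest gene, within 50 kb, to any region with an HFSC peak. Of 198 such genes, 101 passed the count filter. Of these 101, 54.5% were higher and 23.8% lower in wounded EpdSC, against 30.2% and 28.2% of all genes tested. Genes low in EpdSC and HFSC can pass the filter through the wounded libraries alone. A surplus of higher calls is therefore partly built in, and no conclusion is drawn from it. HFSC regions nearer to a neighbouring gene could still lie within 50 kb of these genes. These differences between classes were not tested.

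In set CL, marker genes of T cells and Langerhans cells, fibroblasts and endothelium had higher summed levels in wounded EpdSC. These cells had been sorted as lineage negative. The 16 T cell and Langerhans cell markers summed to 4424 to 5645 CPM in wounded EpdSC against 170 to 178 in EpdSC, with 15 of 16 higher and 0 at 0 in either group, and 8 of 8 fibroblast markers were higher, at 1364 to 1623 against 77.0 to 82.2 CPM. In wounded HFSC lineage the T cell and Langerhans sum was 201 to 206 CPM against 292 to 440 in HFSC, and the fibroblast sum 508 to 631 against 263 to 363. Endothelial markers summed to 18.6 to 24.1 CPM in wounded EpdSC against 0.771 to 0.813 in EpdSC, where Kdr, Tie1, Erg and Emcn were at 0. Melanocyte markers summed to 19 to 25.2 CPM in wounded EpdSC and 15.8 to 21.6 in EpdSC, which overlapped. Sebaceous gland markers went the other way, at 442 to 503 CPM in wounded EpdSC and 615 to 826 in EpdSC, with 1 of 6 higher and 1 lower. In BK the single wounded EpdSC library had a T cell and Langerhans sum of 483 CPM, within the 313 to 577 of EpdSC. Its fibroblast sum was 119 CPM, below the 168 to 303 of EpdSC, and its endothelial sum 9.09, above 1.02 to 3.3. The part of other cells in the wounded EpdSC values was not tested, and in sorted bulk samples fewer cells of a type and less RNA per cell cannot be told apart.

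Sprr1b, Tmprss11g, Slpi and Mmp10, each near a member, rose in both lineages, and all 4 were named for being among the largest rises in 1 or both. Sprr1b, a cornified envelope precursor with a member 1.69 kb away (chr3:92440310-92441169, with a tumour peak), had 627 and 745 CPM in wounded EpdSC against 0.527 and 0.438 in EpdSC, and 486 and 525 in wounded HFSC lineage against 0.367 and 0.751 in HFSC. Its log2 fold changes were 10.44 ± 0.40 (edgeR adjusted p = 1.19e-05) and 9.85 ± 0.38 (edgeR adjusted p = 1.36e-05). Tmprss11g, a membrane serine protease with 3 members near, all with a tumour peak, had 43.7 and 80.2 CPM in wounded EpdSC against 0.406 and 0.438 in EpdSC. In wounded HFSC lineage it had 115 and 126 CPM and in HFSC 0 and 0, at least 1221-fold higher when the HFSC libraries are set to a floor of 3 counts each. Slpi, a secreted protease inhibitor, had 140 and 59.9 CPM in wounded EpdSC against 0 and 0.0625 in EpdSC, and 20.1 and 34.6 in wounded HFSC lineage against 0.0282 and 0 in HFSC (edgeR adjusted p = 5.56e-05 and 0.000116). Mmp10 had 17.8 and 25.4 CPM in wounded HFSC lineage and 0 and 0 in HFSC, at least 219-fold higher, and 9.35 and 22.6 in wounded EpdSC against 0.0406 and 0 in EpdSC (edgeR adjusted p = 0.000256). Wounded and unwounded libraries did not overlap for any of these 4 genes, which is largely built in by that choice.

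Some wound genes near members are also expressed by other cells. Ms4a6d, a gene of myeloid cells, was at least 109-fold higher in wounded EpdSC (13.9 and 19.8 CPM, against 0 and 0 in EpdSC), and Ptprc, which encodes the leukocyte marker CD45 and has a member 22.6 kb away, was higher there by 6.37 ± 0.89 (edgeR adjusted p = 0.000753) but not called in the wounded HFSC lineage (-0.17 ± 0.76, edgeR adjusted p = 0.872). The difference of its 2 responses was 6.54 ± 1.14 (edgeR adjusted p = 0.00933). Defb14, an antimicrobial defensin, had 6.42 and 9.11 CPM in wounded EpdSC against 0 and 0 in EpdSC, and 5.23 and 12.3 in wounded HFSC lineage against 0.254 and 0.902 in HFSC (edgeR adjusted p = 0.000875 and 0.00444).

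Genes near members that were chosen for higher RNA in EpdSC than in HFSC mostly had lower RNA in wounded EpdSC. Of the 85 genes higher in EpdSC in both sets, 53 were lower and 13 higher in wounded EpdSC, and 39 were higher and 13 lower in wounded HFSC lineage. Over all genes tested, 28.2% were lower and 30.2% higher in wounded EpdSC, and 21.4% were higher and 24.7% lower in wounded HFSC lineage. The counts for the 85 genes draw on the EpdSC and HFSC libraries that also chose them, so a return toward the other group is built in. Adamts14 had 4.20 and 6.15 CPM in wounded EpdSC against 314 and 264 in EpdSC (-5.80 ± 0.48, edgeR adjusted p = 8.39e-05). Il20ra had 8.93 and 9.24 against 137 and 137 (-3.91 ± 0.33, edgeR adjusted p = 8.92e-05), while in BK the single wounded EpdSC library had 122 CPM. Of the genes named above, Adam8, Gsdmc2, Tslp, Il1rn and Mmp3 were higher in wounded EpdSC, Il1rn losing the call without EpdSC replicate A or B or wounded EpdSC replicate B (edgeR adjusted p = 0.0905, 0.176 and 0.0593). Adam8 had 181 and 175 CPM in wounded EpdSC against 69.4 and 50.6 in EpdSC (1.57 ± 0.26, edgeR adjusted p = 0.0016), and 86.9 and 87.7 in wounded HFSC lineage against 2.40 and 3.79 in HFSC (4.82 ± 0.30, edgeR adjusted p = 4.12e-05). Bmpr1b was not called in wounded EpdSC (0.68 ± 0.54, edgeR adjusted p = 0.298) and rose in wounded HFSC lineage to 11.1 and 22.6 CPM, against 0.254 and 0.113 in HFSC (edgeR adjusted p = 0.000392). Both genes were chosen for being higher in EpdSC than in HFSC, so a difference between these 2 responses is built in.

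Genes near members without a tumour peak had more lower calls in tumours than genes near members with one. HRas and HRas TbrKO cells with high integrin A6 (1 library each) were pooled as 1 group and compared with the single Tbr EpdSC library. That library is assumed to vary like the HRas-bearing pairs. The pooled group mixes genotypes and Tbr EpdSC carry another label, so tumour state, grafting and genotype cannot be told apart here. The spread of Tbr EpdSC was not measured, and on simulated data false calls in this comparison exceeded the nominal level, so calls near the threshold are not firm. Near members with a tumour peak, 214 of 802 genes were higher in tumour and 190 lower, 26.7% and 23.7%, and near members without, 105 of 624 were higher and 236 lower, 16.8% and 37.8%. Over all 16201 genes, 25.5% were higher and 22.9% lower, 48.3% in all. The median log2 fold changes, tumour over Tbr EpdSC, were 0.18, -0.48 and 0.12. Genes near regions with an EpdSC peak alone had 18.2% higher and 38% lower, with a median of -0.44. These values were close to those near members without a tumour peak, so the trait was not particular to the members. Among genes near members of a single class, the shares were 27.1% and 22.7% where the members had a tumour peak and 15.7% and 39.1% where they had none. The difference between the classes was not tested, and markers of other cells moved too. Fibroblast markers summed to 3409 and 1584 CPM in the tumour libraries against 174 in Tbr EpdSC, with 8 of 8 higher. Endothelial markers summed to 227 and 147 against 1.62. T cell and Langerhans markers summed to 818 and 750 against 389, but 8 of 16 were higher and 4 lower. The most abundant of these in each of the libraries was Epcam, which encodes epithelial cell adhesion molecule. The part of other cells was not tested.

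Large changes in tumours were found near both classes. Prkg2, a cyclic GMP-dependent kinase with a member carrying a tumour peak 0.264 kb from its start, had 521 and 459 CPM in tumour against 0.299 in Tbr EpdSC (10.65 ± 0.54, edgeR adjusted p = 0.000337). Gap43, a growth cone protein of neurons with such a member 45.1 kb away, had 139 and 65.0 CPM against 0, at least 794-fold higher. Il1a, whose promoter is printed above, had 99.5 and 100 CPM against 6.70 (3.9 ± 0.62, edgeR adjusted p = 0.00502). Near members without a tumour peak, Il20ra had 0.952 and 0.950 CPM in tumour against 253 in Tbr EpdSC (-8.05 ± 0.24, edgeR adjusted p = 0.000331). Il22ra2, a soluble receptor that binds interleukin 22, had 0.423 and 0.0760 against 378, and Serpinb7, an epidermal serine protease inhibitor, 0.846 and 0.190 against 358. Rasgrf1, a Ras guanine nucleotide exchange factor near a member with a tumour peak, was lower, at 0 and 0 CPM against 2.52, at least 22.9-fold lower.

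The genes whose promoters were printed did not share a single RNA pattern. Mmp3 had 7.59 and 6.13 CPM in CL EpdSC against 0.424 and 1.16 in HFSC (3.15 ± 0.46, edgeR adjusted p = 0.00431) and rose in wounded HFSC lineage to 22.1 and 33.1 CPM (5.15 ± 0.48 over HFSC, edgeR adjusted p = 0.000168). Skint11 had 24.9 and 29.4 CPM in CL EpdSC against 5.87 and 8.57 in HFSC (1.91 ± 0.44, edgeR adjusted p = 0.0307, and 0.0915 to 0.171 when 1 library was left out), and 0.211 and 0.0380 in tumour against 9.31 in Tbr EpdSC (-6.14 ± 0.67, edgeR adjusted p = 0.00164). Cyp3a13 had 41.6 and 39.7 CPM in CL EpdSC against 10.7 and 15.7 in HFSC (1.62 ± 0.42, edgeR adjusted p = 0.0469, and 0.114 to 0.22 when 1 library was left out). Il1a was not called between EpdSC and HFSC (1.22 ± 0.63 in CL, edgeR adjusted p = 0.32), and in wounded HFSC lineage it was higher, at 5.33 and 8.54 CPM against 0.960 and 0.902 (2.89 ± 0.64, edgeR adjusted p = 0.0078, and 0.0502 without HFSC replicate B).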

How the data were processed

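Per the file headers, the authors called ATAC-seq peaks with MACS2 2.1.1.20160309 on pooled, filtered paired-end fragments, without a control, at a q-value of 0.05. The deposited pileup signal, fold enrichment ratio and -log10 q of each peak are theirs. The authors' RNA values were raw read counts per gene symbol, deposited without normalisation. All 21 columns were matched to samples (0 unmatched); the table's line of column totals was dropped. Bowtie, Picard, STAR and mm10 are named in the submitters' processing notes. The gene counter and its strand setting are not given in the sources used here.

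Regions were merged at 1 shared base. Gene starts came from RefSeq (GRCm38.p6), with strand and start for 79.9% of 21631 protein-coding genes and none on chromosome 18. For the other genes the nearer gene end served. Counts were fitted per library set in R 4.3.3 with edgeR 4.0.16 (TMM, filterByExpr, quasi-likelihood), 1 mean per group, and tested on simulated data, where false calls exceeded the nominal level in BK, wounded HFSC lineage and tumour, so calls close to the threshold are not firm. CPM are TMM-scaled within a set. DESeq2 1.42.0 was an alternative. Low-count filtering left 1260, 1258 and 1332 of the 1489 near genes in CL, BK and DS. No genome sequence was used, so motifs planned around summits were searched in RefSeq promoter windows, on both strands. Intervals are Wilson at 95%. A floor of 3 counts per library stood for groups at 0. Printed genes follow a rule: the 10 strongest regions per class, list genes, the 10 genes nearest to the most members, the 10 largest changes per direction in both sets and the 6 per direction in other comparisons; others were chosen after their values were seen. The labels do not say that replicate letters or numbers pair the libraries, and deviations agreed in some group pairs only. Members and lists were chosen with earlier results of these data known.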

Additional observations from a re-analysis of the deposited data

Results flagged for a closer look

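The wound response differed between the lineages for 49 of 150 named genes tested, by edgeR's test of the difference (wounded EpdSC response minus wounded HFSC lineage response, log2, adjusted over all genes). The values of 7 follow: 6 named for an extreme wound response in 1 or both lineages, a choice that favours a difference, and Ptprc, a list gene. Tmprss11g differed by -7.40 ± 1.11 (edgeR adjusted p = 0.00756) and was at 0 in HFSC. Ch25h, cholesterol 25-hydroxylase, differed by 3.97 ± 0.70 (edgeR adjusted p = 0.00963, and 0.0538 without wounded HFSC lineage replicate A). Ptprc differed by 6.54 ± 1.14 (edgeR adjusted p = 0.00933, and 0.0665 without EpdSC replicate A). Irf4 differed by 4.87 ± 0.91 (edgeR adjusted p = 0.0165), Il22ra2 by -2.52 ± 0.65 (0.038), Scn3a, a sodium channel, by 9.47 ± 2.44 (0.0449) and Ppargc1a, a coactivator of mitochondrial genes, by -6.23 ± 1.63 (0.0466). These 4 lost the call in several fits with 1 library left out, the highest edgeR adjusted p being 0.0716 for Irf4, 0.118 for Il22ra2, 0.152 for Scn3a and 0.125 for Ppargc1a. With the replicate block, Scn3a and Ppargc1a lost it (0.0611 and 0.0613). Irf4 and Scn3a were at 0 in both wounded HFSC lineage libraries and Ppargc1a in both wounded EpdSC libraries, so their fitted sizes are no bounds.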

How the results depend on the processing

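The number of members and their shares kept their meaning under other peak choices, with exceptions in size. The share with a tumour peak was 50.6% at a fold of at least 5 and 50.7% with equal numbers of peaks per list. The share at a start was 11.2% within 5000 bases and 2.92% with known starts alone. The AP-1 share was 19.8% at a -log10 q of at least 5 and 24.6% for windows wholly inside a member. Counts of called genes near members moved most when fewer libraries set the spread: EpdSC over HFSC in CL gave 253, 380 with only these groups fitted and 89 to 185 with 1 library left out; BK gave 255, 141 to 653 with 1 left out. Wounded EpdSC gave 816 (570 to 890 with 1 left out), wounded HFSC lineage 642 (426 to 480) and tumour 694 (604 to 624). Starts within 20 kb gave 164 in BK, 528 in wounded EpdSC, 413 in wounded HFSC lineage and 448 in tumour, since fewer genes were near. The difference of the wound responses gave 282 calls, 90 to 661 with 1 library left out (all its alternatives were added after seeing the data). With the replicate block the counts were 245, 300, 815 and 615 in CL, BK, wounded EpdSC and wounded HFSC lineage, and 242 for the difference. Correlations of same-lettered CL libraries ran from -0.479 (HFSC with wounded EpdSC) to 0.782 (wounded HFSC lineage with wounded EpdSC). Same-numbered BK libraries deviated apart (correlation -0.332), and the crossed replicate block, added after seeing the data, gave 433. The alternative RLE scaling moved the median of all genes in wounded EpdSC to 0.07, against -0.04, and that of genes near members to -0.12, against -0.24. Of 387 called values of named genes, 279 kept call and direction in every alternative, 108 lost the call in at least 1 and 0 reversed. Motif windows around summits and leaving out the lone Tbr EpdSC library were not run.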
